A study of Sus scrofa with 48 samples.

Results

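The circular RNAs (circRNAs) of 1 gene, CREBBP, were described in extracellular vesicles of boar seminal plasma. They comprised the 10 circRNAs of the junction count table that lay on chromosome 3 between positions 38413987 and 38514308, of 17379 circRNAs in all. The gene was chosen by measured values: circ-CREBBP, which spans positions 38470924 to 38472523, was picked by the study for its difference between the groups compared here, and a circRNA entered the table only where junction reads had been found. Values of circ-CREBBP are therefore given as a description, without a test, and the other 9 circRNAs are the main subject.

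Seminal plasma extracellular vesicles (SPEVs) had been collected from sexually mature Yorkshire boars aged 14 to 36 months. The high motility group (H) and the low motility group (L) held 12 boars each, with 1 long RNA library and 1 small RNA library per boar. Plasma volume per boar is 60 mL by the sample labels and another value in the methods of the study. Libraries are named here by group and replicate number, as in H3. H and L libraries of the same number came from different boars.

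CREBBP encodes CREB binding protein, a histone acetyltransferase that is recruited to promoters and enhancers by CREB and many other transcription factors, and that acts there together with its close relative EP300. The protein carries zinc binding TAZ domains and a KIX domain, which hold transcription factors, a bromodomain, which binds acetylated lysine, and the catalytic domain. A circRNA arises when the 5′ splice site at the end of an exon is joined backwards to the 3′ splice site at the start of the same or an earlier exon. The closed ring has no free ends, and is for that reason more stable than the linear transcript. A read that crosses the backward junction is specific to the ring, whereas reads inside its exons are shared with the messenger RNA, so that junction reads were the measure used.

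Junction reads over all circRNAs numbered 149468 to 610615 per long RNA library in the H group (median 280608) and 128644 to 593023 in the L group (median 297976). The number of circRNAs with reads ranged from 956 to 2742 per H library (median 1908) and from 1437 to 5716 per L library (median 2359). L12 had the most circRNAs and H3 the most junction reads. No pair of libraries had identical counts (0 pairs). Levels are given in RPM, the junction reads of a circRNA scaled to 1000000 circRNA junction reads of its library, with exact Clopper-Pearson 95% intervals for single libraries. Reads carried no molecular identifiers, so that the intervals cover counting error only. The table was limited to circRNAs with at least 2 junction reads, and a count of 0 is therefore given without an upper limit. In bulk vesicle RNA, fewer vesicles from a cell type and less of an RNA per vesicle cannot be told apart.

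On the Sscrofa11.1 build, CREBBP lies on the plus strand of chromosome 3 at 38388366 to 38530243 and is annotated with 31 exons. All 10 circRNAs began and ended exactly on annotated exon edges, as did 83.2% of the 17379 circRNAs in the table. The 3′ splice site before each start carried the bases AG and the 5′ splice site after each end the bases GT in 10 of 10. Junction reads give the ends of a ring alone. The inner exons were taken from the annotation, and spliced lengths, sites and reading frames below assume that all annotated exons between the ends are kept and all introns removed. The rings fell into 4 stretches of the gene. The stretch of exons 2 to 5 gave 5 circRNAs, that of exons 7 to 9 gave 2, that of exons 14 to 16 gave 2, and that of exons 20 to 23 gave 1. Together they used 14 of the 31 exons, and none included exons 24 to 31, which encode the larger part of the catalytic domain and the C-terminal part of the protein.

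**Figure D1:**
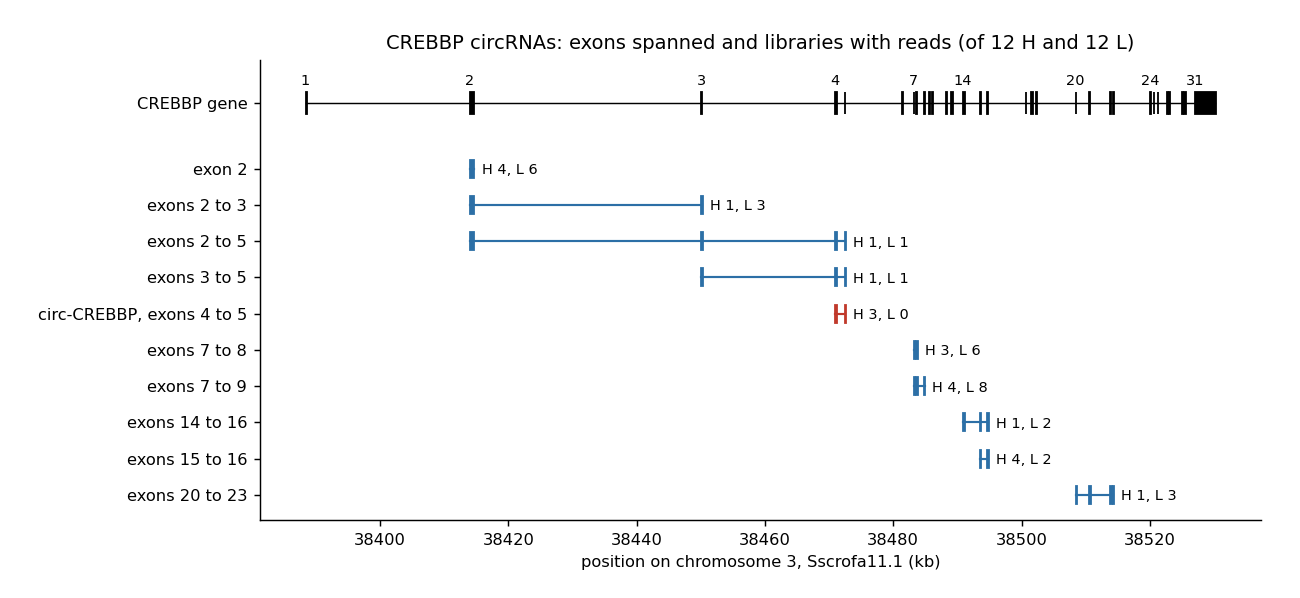
The exons of CREBBP along chromosome 3 (position in kb, exon numbers above the top line) and the annotated exons between the ends of each of the 10 circRNAs, with very short exons widened so that they can be seen. The numbers beside each circRNA are its libraries with reads among 12 H and 12 L libraries; circ-CREBBP, in red, had reads in 3 H and 0 L libraries.

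The 10 circRNAs had 5984 junction reads in all. Of their 240 counts (10 circRNAs in 24 libraries), 55 were above 0, and 77.1% were 0, against 86.4% of the counts of all circRNAs. Where reads were present, there were 16 to 608 of them, with a median of 75, and the median over all circRNAs of the table was 80. Over all 24 libraries, the circRNA of exons 7 to 9 was the most abundant, with 33.8% of the CREBBP reads, followed by circ-CREBBP with 17.9% and exons 7 to 8 with 16.9%. The circRNA of exon 2 had 8.54% and that of exons 15 to 16 had 8.02%, and the remaining 5 had 2.04% to 5.31% each. These shares weight deep libraries more, and H3 gave many of the reads of circ-CREBBP, whose share was 11.9% without H3, against 15.7% for exons 7 to 8. By mean RPM, which weights libraries equally, the order after exons 7 to 9 (208 RPM) was exons 7 to 8 (132 RPM), circ-CREBBP (110 RPM), exons 15 to 16 (79.6 RPM) and exon 2 (65.3 RPM). On this measure exons 7 to 9 ranked 879 among the 17379 circRNAs, and exons 3 to 5 ranked 8958. The order differed between the groups. In H the means of circ-CREBBP, exons 15 to 16 and exons 7 to 9 were 219, 142 and 137 RPM. Without H3 they were 159, 155 and 58.6 RPM. In L exons 7 to 9 had the highest mean, 280 RPM, and circ-CREBBP was at 0.

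The N-terminal stretch of the gene was the most varied. Exon 2, which encodes codons 29 to 266, was circularized alone, with exon 3, or with exons 3, 4 and 5, and these 3 rings share the start at position 38413987. The ring of exon 2 alone, 713 nt long, had reads in 4 H and 6 L libraries. In H3, H5, H7 and H8 its reads numbered 30, 34, 56 and 93, and in L2, L5, L8, L10, L11 and L12 they numbered 37, 24, 98, 90, 33 and 16. Its levels where present ran from 49.1 RPM in H3 to 242 RPM in H7 in the H group and from 27 RPM in L12 to 278 RPM in L10 in the L group, so that the groups overlapped. Exons 2 to 3 formed a ring (38413987 to 38450234, 890 nt) with 71 reads in H12 and 117, 80 and 50 reads in L8, L11 and L12. The ring of exons 2 to 5 (38413987 to 38472523, 1245 nt) had 146 reads in H4 (588 RPM, 95% interval 497 to 692) and 24 in L12 (40.5 RPM, 25.9 to 60.2). Each of these rings thus occurred in both groups.

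The end of exon 5, at position 38472523, was joined backwards to 3 different exons. Besides the ring that begins at exon 2, the ring of exons 3 to 5 (38450058 to 38472523, 532 nt) had 30 reads in H10 (201 RPM, 135 to 287) and 92 in L12 (155 RPM, 125 to 190). The last ring with this end is circ-CREBBP, which holds exons 4 and 5 (355 nt, codons 326 to 444, the stretch with the TAZ1 domain). It had 204 reads in H1 (1008 RPM, 875 to 1156), 537 in H3 (879 RPM, 807 to 957) and 331 in H9 (742 RPM, 664 to 826), and no reads in the other 9 H libraries or in any of the 12 L libraries. In H3 this ring stood at rank 206 by reads among 2572 circRNAs, in H9 at rank 303 among 2165 and in H1 at rank 343 among 956. Where it was present it was thus more abundant than the rings of exons 2 to 5 and 3 to 5 were in any library. No library had circ-CREBBP together with either of the other rings that end at exon 5. L12 had both of those, and H4 and H10 had 1 each. Any ring ending at exon 5 was seen in 5 H libraries and 1 L library, with 1364 reads in all.

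The junctions of the 3 rings that end at exon 5 are shown because they share one side and differ in the other. In each, the 20 bases in lower case are the end of exon 5 and the 20 bases in capitals are the start of the exon to which it was joined. All are read 5′ to 3′ on the plus strand of Sscrofa11.1, the first 2 from chr3:38413987-38472523 and chr3:38450058-38472523 and the last from chr3:38470924-38472523.
exons 2 to 5: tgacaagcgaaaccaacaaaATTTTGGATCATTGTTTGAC
exons 3 to 5: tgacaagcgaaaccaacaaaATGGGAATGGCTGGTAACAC
circ-CREBBP, exons 4 to 5: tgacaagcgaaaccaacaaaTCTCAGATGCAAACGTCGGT

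With all annotated exons kept, exons 4 and 5 are part of all 3 rings, and so are the sites of the qPCR primers that were made for circ-CREBBP. Both qPCR primers of the study had exact sites in the rings of exons 2 to 5 and 3 to 5 as well as in circ-CREBBP, and in none of the other 7. In each of the 3 rings the pair faces the backward junction. The product would be 185 nt long on circ-CREBBP, 362 nt on the ring of exons 3 to 5 and 1075 nt on the ring of exons 2 to 5. The 19 bases of the study's siRNA, without its overhang, had an exact match in circ-CREBBP, with 14 bases before the junction and 5 after it, and in none of the other 9 rings. For circ-CREBBP the study reported a gel band of the expected size and its backward junction by Sanger sequencing. How the primers or the siRNA acted on the longer rings was not measured in these data.

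A seed match of miR-143-3p, 1 of the 2 miRNAs that the study set against circ-CREBBP, also lay in the part that these rings share. Seed matches of the other, miR-10384, were not searched. The mature miRNA is shown with its seed, bases 2 to 8, in capitals, as the genome has it on the plus strand at chr2:150578786-150578806.
ssc-miR-143-3p: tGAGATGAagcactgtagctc
The complement of the seed, TCATCTC, occurred at 1 place in the whole CREBBP transcript, inside exon 5. TCATCTC was therefore present at 1 site in each of circ-CREBBP and the rings of exons 2 to 5 and 3 to 5, and at 0 sites in the other 7 circRNAs, junctions included. A shorter match, TCATCTC without its first base, also occurred at 1 site in the ring of exons 14 to 16. In the whole transcript only exact matches of TCATCTC were searched, so that sites of other kinds there are not excluded. For this miRNA the study reported a target site in the untranslated region after the CREBBP coding sequence, with reporter assays of intact and mutated sites. That site was not examined here. In the small RNA libraries miR-143-3p had 0 to 0.86 CPM (counts scaled to 1000000 miRNA counts of the library) in the H group (median 0) and 0 to 1.83 CPM in the L group (median 0.973). The other miRNA, miR-10384, had 0.269 to 5.65 CPM in the H group (median 2.79) and 1.93 to 9.8 CPM in the L group (median 5). Both were chosen by the study for their levels in these libraries, so that no test is given, and a match of 7 letters is a description of the sequence.

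The stretch of exons 7 to 9 held 50.7% of all CREBBP junction reads. It encodes codons 525 to 647, with the first part of the KIX domain, the surface to which phosphorylated CREB binds. Both of its rings start at exon 7 (position 38483180). That of exons 7 to 8 ends at 38483694 and is 250 nt long, and that of exons 7 to 9 ends at 38484897 and is 368 nt long. The longer ring had reads in 12 libraries, more than any other CREBBP circRNA, with 608, 75, 59 and 40 reads in H3, H9, H10 and H12. In the L group it was found in 8 libraries, with 29, 228, 148, 219, 126, 137, 116 and 236 reads in L2, L3, L5, L6, L8, L9, L11 and L12. Its levels where present were 81.7 to 996 RPM in the H group and 159 to 920 RPM in the L group. The shorter ring had 108, 307 and 95 reads in H2, H3 and H4 and 96, 148, 84, 75, 55 and 46 reads in L1, L3, L5, L9, L10 and L11, which is 383 to 503 RPM and 103 to 746 RPM. In both rings the levels of the groups overlapped.

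Of the 16 libraries with reads from either ring, 5 had both, 4 had the shorter ring alone and 7 had the longer ring alone. In the 5 libraries with both, the shorter ring made up a similar part of the reads. Its share was 33.6% in H3 (95% interval 30.5 to 36.7), 39.4% in L3 (34.4 to 44.5), 36.2% in L5 (30 to 42.8), 35.4% in L9 (29 to 42.2) and 28.4% in L11 (21.6 to 36). Elsewhere no mixture was seen, as in L12 with 236 reads of the longer ring and 0 of the shorter, or L6 with 219 and 0. Low counts were rare, since 1.76% of all counts above 0 were under 10. A count of 0 beside many reads of the other ring is therefore not read as absence of a ring. H2 and L1, in turn, had 108 and 96 reads of the shorter ring and 0 of the longer. The junctions of this pair share the acceptor side, in capitals, and differ in the donor side, in lower case. They were read from the plus strand of chr3:38483180-38483694 and chr3:38483180-38484897.
exons 7 to 8: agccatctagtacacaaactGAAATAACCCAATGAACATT
exons 7 to 9: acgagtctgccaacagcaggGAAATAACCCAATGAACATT

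The middle of the gene gave 2 rings that end at exon 16 (position 38494815), ahead of the exons of the bromodomain. The ring of exons 15 to 16 (start 38493456, 370 nt) had 103, 46, 94 and 166 reads in H2, H4, H5 and H6 and 35 and 36 reads in L6 and L12. Its levels were 185 to 539 RPM in the 4 H libraries and 147 RPM and 60.7 RPM in the 2 L libraries. Among the 9 circRNAs beyond circ-CREBBP, it was the only one with more H than L libraries. Its 4 H values all lay above its 2 L values, but 8 H libraries were at 0. The ring of exons 14 to 16 (start 38490819, 787 nt) had 35 reads in H10, 50 in L3 and 45 in L11. No library had both of these rings. The 20 bases at the end of exon 16 close with a run of A, and the junctions differ in what follows them, in capitals, on the plus strand of chr3:38490819-38494815 and chr3:38493456-38494815.
exons 14 to 16: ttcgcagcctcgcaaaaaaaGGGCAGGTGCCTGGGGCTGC
exons 15 to 16: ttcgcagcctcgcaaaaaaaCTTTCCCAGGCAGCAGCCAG

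The last ring, of exons 20 to 23 (38508427 to 38514308), is made of 4 short exons with 284 nt in all. They encode codons 1236 to 1331, a stretch with the PHD finger that follows the bromodomain. It had 22 reads in H5 (126 RPM, 79.1 to 191), 17 in L5 (62.5 RPM, 36.4 to 100), 48 in L6 (202 RPM, 149 to 267) and 59 in L11 (133 RPM, 101 to 171). With 44.4% G and C it had the lowest share of these bases among the 10 rings, which reached 62.9% in exons 14 to 16, and the inner exons of the gene together had 56.4%.

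By reading frame, the ring of exons 2 to 5 stood apart from the other 9. If its 4 annotated exons are all kept, its 1245 nt are a whole number of codons, and the frame of CREBBP, followed around the ring, met no stop codon. In the other 9 rings the frame shifts at the junction and met a stop within the next turn, between 4 bases past the junction in exons 7 to 8 and 299 bases past it in circ-CREBBP. No protein was measured here.

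The 2 groups were then compared, to ask whether the isoforms beyond circ-CREBBP differed with sperm motility as circ-CREBBP had been chosen to do. All 9 had reads in both groups. More L than H libraries had reads of 6 of them, more H than L libraries of 1, and 2 were level at 1 library each. Detection was compared for each circRNA of the table by a two-sided Fisher's exact test of 12 H against 12 L libraries, with a call at an unadjusted p under 0.05. This test called 133 of 17379 circRNAs (0.765%), 128 with more L and 5 with more H libraries, and 0 of the 9 CREBBP circRNAs. The smallest p among the 9 was 0.22, for exons 7 to 9 with 4 H and 8 L libraries, and after Benjamini-Hochberg adjustment over all circRNAs 0 of the 17379 stayed under 0.05. A call needed reads in at least 5 libraries, since 4 against 0 gives an exact p of 0.0932. Of the 9 CREBBP circRNAs, 5 were found in fewer and could not have been called. The other 4 are the ones that bear on the question, and 3502 circRNAs of the table had reads in at least 5 libraries, of which 3.8% were called.

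Levels were compared by edgeR's quasi-likelihood test over the 2793 circRNAs with reads in at least 6 libraries. A circRNA was called at an unadjusted p under 0.05 if its fold change was also 1.5 or more, or 0.67 or less. The test called 47 circRNAs (1.68%), 41 higher in L and 6 higher in H. Without L12 it called 28 of 2428, 21 higher in L and 7 higher in H. An adjusted p under 0.05 was reached by 20 circRNAs, a count that was 8 without L12 and 4 with DESeq2. Of the 9 CREBBP circRNAs, 4 entered the test, 0 were called and 0 had an unadjusted p under 0.05, and DESeq2 on the same circRNAs also gave 0 and 0. For exons 7 to 9, with means of 137 ± 295 RPM in H and 280 ± 278 RPM in L (SD, n = 12 each), the log2 fold change of L over H was 1.15 (SE 1.63, edgeR p = 0.482). H3 held most of the H reads of this ring, and without it the H mean was 58.6 RPM and the log2 fold change 2.52, again without a call. For exons 15 to 16, with means of 142 ± 227 RPM in H and 17.3 ± 44.4 RPM in L, it was -2.89 (SE 2.01, p = 0.151). The values for exon 2 and for exons 7 to 8 were 0.50 (SE 1.88, p = 0.793) and 0.42 (SE 1.83, p = 0.818), the latter 1.23 without H3, and the adjusted p of each of the 4 rounded to 1. Each edgeR SE was derived from the log2 fold change and the F statistic of the test, and the 95% intervals from it by a normal approximation. These intervals were wide, from -2.05 to 4.35 for exons 7 to 9 and from -6.84 to 1.06 for exons 15 to 16. At this depth and number of boars they thus held differences of several fold. For exons 7 to 9 these ran either way, and for exons 15 to 16 toward higher levels in H.

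The isoforms were next followed library by library. In the H group 1 library had no CREBBP circRNA (H11), 4 had 1, 3 had 2, 3 had 3 and 1 had 4 (H3). In the L group 2 libraries had none (L4 and L7), 1 had 1, 3 had 2, 3 had 3, 1 had 4 (L5) and 2 had 6 (L11 and L12). The mean was 1.92 ± 1.16 in H and 2.67 ± 1.97 in L (SD, n = 12 each). The L libraries also had more circRNAs of any kind, and CREBBP accounted for 0.0974% of all detections in H (23 of 23604) and 0.0964% in L (32 of 33201). The libraries with 6 isoforms had 4118 and 5716 circRNAs. H11, with 487984 junction reads and 2742 circRNAs, had no CREBBP circRNA, and L8, with 4255 circRNAs, had 3.

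**Figure D2:**
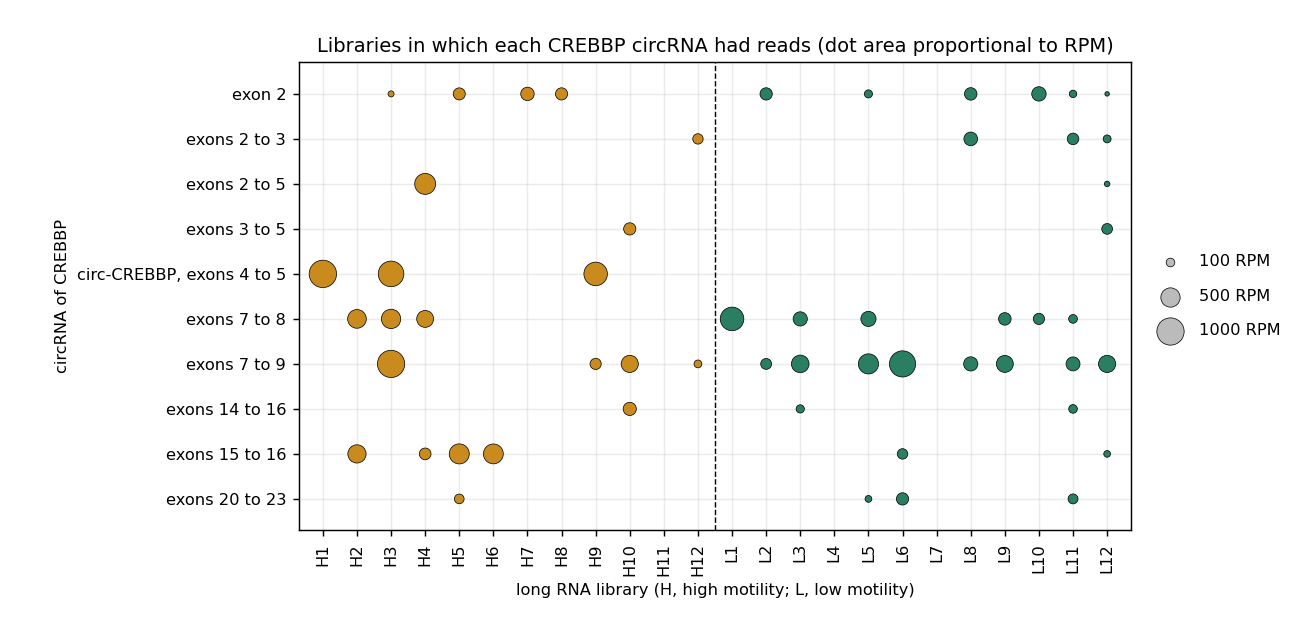
Reads of each CREBBP circRNA (rows) in each of the 24 long RNA libraries (columns), where the area of a dot is proportional to its level in RPM and no dot means 0 reads. The ring of exons 7 to 9 appears in 8 L and 4 H libraries, circ-CREBBP in H1, H3 and H9, and L11 and L12 hold 6 circRNAs each.

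Among the 45 pairs that the 10 circRNAs form, 34 shared at least 1 library and 11 shared none. The most shared libraries, 6, were found for exon 2 and exons 7 to 9, namely H3, L2, L5, L8, L11 and L12, which is 60% of the libraries of the former and 50% of those of the latter. Exons 7 to 8 and exons 7 to 9 shared 5 libraries, 55.6% and 41.7% of theirs. Exons 2 to 3 occurred in 4 libraries, and all 4 also had exons 7 to 9 (H12, L8, L11 and L12). The same held for the 3 libraries with exons 14 to 16 (H10, L3 and L11) and the 2 with exons 3 to 5 (H10 and L12). Both libraries with exons 2 to 5 (H4 and L12) had exons 15 to 16. These shares are descriptive, since rings found in many libraries meet others more often, and no test of them was made.

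Pairs of rings were also grouped by a common start or a common end. Each of the 4 pairs that start at the same exon met in at least 1 library, and the median was 2 libraries. Of the 4 pairs that end at the same exon, 3 met in 0 libraries and 1 in 1 library (exons 2 to 5 with exons 3 to 5, in L12). For comparison, the 36 pairs with neither end nor any exon in common had a median of 1 shared library, and 8 of them had 0. The rings with a shared end were found in few libraries, namely 2, 2, 3, 3 and 6. With 4 pairs in each class, no difference between the classes was tested, and none is read from these counts.

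circ-CREBBP met few of the other isoforms. In H1 it was the only CREBBP circRNA. In H9 it occurred with exons 7 to 9 (75 reads), and in H3 with exon 2 (30 reads), exons 7 to 8 (307 reads) and exons 7 to 9 (608 reads). It shared 0 libraries with each of the other 6. Of the remaining 9 H libraries, 8 had other CREBBP circRNAs, and H6 with 166 reads of exons 15 to 16 and H7 and H8 with 56 and 93 reads of exon 2 had 1 isoform each.

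Summed over the 10 circRNAs, CREBBP had reads in 11 of 12 H and 10 of 12 L libraries. The sum ranged from 0 to 2427 RPM in H (median 845) and from 0 to 1269 RPM in L (median 739), with means of 775 ± 643 and 630 ± 377 RPM (SD, n = 12 each). The groups overlapped, and the highest value was that of H3. The L mean minus the H mean was -146 RPM, and it turned to 73.2 RPM without circ-CREBBP, to 29.1 RPM with TMM-scaled library totals and to 4.21 RPM without H3, each less than the spread within a group. Without circ-CREBBP, the means were 556 ± 500 RPM in H and 630 ± 377 RPM in L, and 10 libraries of each group had reads. For these 9 circRNAs the difference of 73.2 RPM became 218 RPM with TMM-scaled totals (means of 535 and 753 RPM), 163 RPM without H3 (H mean of 466 RPM) and 353 RPM by medians (386 and 739 RPM). It kept its sign but not its size, and each of these values was below the SD of 500 RPM in the H group.

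The sum was then divided by stretch of the gene. With circ-CREBBP included, the stretch of exons 2 to 5 gave 46.6% of the CREBBP reads in H and 24.5% in L, and that of exons 7 to 9 gave 39.3% in H and 64.7% in L. The contrast in the former came from circ-CREBBP, which was chosen for its difference. Without it, exons 2 to 5 gave 20.7% of the reads in H and 24.5% in L, with means of 135 ± 173 and 133 ± 161 RPM, and exons 7 to 9 gave 58.3% in H and 64.7% in L. The shares in H rested on H3. Leaving it out as well as circ-CREBBP gave 33.8% for exons 2 to 5 and 29.6% for exons 7 to 9, so that the order of the groups turned for the former and the gap widened for the latter. Rings of exons 7 to 9 were present in 6 H and 10 L libraries, with means of 250 ± 432 and 431 ± 324 RPM. Without H3 the H mean of this stretch fell to 136 RPM. Rings of exons 14 to 16 were present in 5 H and 4 L libraries, with means of 161 ± 223 and 33.4 ± 52.7 RPM. The order of the group means was the same with TMM-scaled totals, with 254 and 487 RPM for exons 7 to 9, 147 and 42.7 RPM for exons 14 to 16, and 312 and 187 RPM for exons 2 to 5 with circ-CREBBP. Without circ-CREBBP, the TMM-scaled means of exons 2 to 5 were 123 RPM in H and 187 RPM in L, so that their order turned with the scaling. All of these differences were smaller than the larger of the group SDs, and none was tested.

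**Figure D3:**
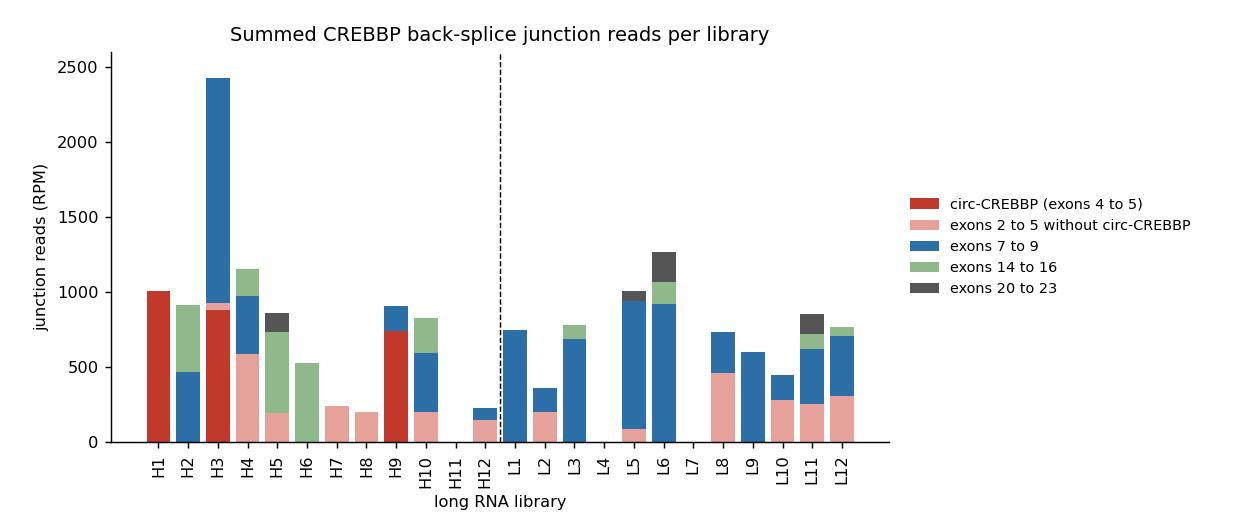
Summed junction reads of the CREBBP circRNAs in each long RNA library (bars, in RPM), divided by stretch of the gene, with circ-CREBBP on its own in red. H3 reaches 2427 RPM, the other libraries stay at or below 1269 RPM, and H11, L4 and L7 are at 0.

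The rings were also compared by the introns at their borders. CREBBP has 30 introns with a median length of 1363 bases, and 12 of them border a ring. The 7 longest introns, of 5770 bases and more, all border at least 1 ring, whereas the longest intron that borders none has 3244 bases. The 5 rings of the N-terminal stretch are flanked by introns of 8797 to 35358 bases, against medians of 5338 and 5310 bases on the left and right of the 14462 circRNAs of the table with both ends on exon edges. Shorter introns flank the pair that starts at exon 7, since the rings of exons 7 to 8 and 7 to 9 lie between an intron of 1616 bases and introns of 1085 and 686 bases. The rings of exons 14 to 16 and 15 to 16 have short introns on the left as well, of 1559 and 2220 bases, and share an intron of 5815 bases on the right.

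Because inverted repeats in flanking introns can pair and bring the 2 splice sites of a ring together, such matches were searched with blastn. A match at an E-value of at most 0.001 was found between the 2 flanking introns of 9 of the 10 rings, and for 114 of the 435 possible pairs of inner exons in the gene (26.2%). The best match was that of exon 2, with 298 bases at 91.6% identity and the second highest score of the 435. Exons 2 to 3 followed at rank 13, with 262 bases at 88.9% identity. circ-CREBBP, at rank 75, had 224 bases at 75% identity. Exons 7 to 9, the most abundant over both groups together but not in H alone, had no match (0). A longer intron offers more sequence to match, so that length and matches are not separate measures, and neither was tested against circularization.

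Within the whole table, 1603 circRNAs had reads in exactly 3 libraries. Of these, 71 were found in H libraries alone (4.43%), 362 in L libraries alone (22.6%) and 1170 in both groups. circ-CREBBP was one of the 71 and was at rank 3 of the 1603 by reads. No other circRNA (0) had reads in precisely H1, H3 and H9. By number of circRNAs CREBBP was at rank 223 of 5182 host genes, and 281 genes had 10 or more, and by summed RPM it was at rank 316, with a mean of 703 ± 521 RPM over the 24 libraries.

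The host genes whose summed RPM followed that of CREBBP most closely over the 24 libraries were looked up among 2163 genes with reads in at least 6 libraries. They were RC3H1, with Spearman's rho of 0.66, which encodes roquin, an RNA binding ubiquitin ligase, MINDY3 (0.63), a deubiquitinase, SIMC1 (0.62), ITCH (0.61), a ubiquitin ligase, and RNF168 (0.60), a ubiquitin ligase of the DNA damage response. The median rho of the 2163 genes was 0.00. The values share library depth and the number of circRNAs per library, and the 5 are the highest of many, so that they are given as a description.

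EP300, the relative of CREBBP, had 13 circRNAs between positions 7318653 and 7372685 on chromosome 5, of which 12 had both ends on exon edges. Its summed level was 0 to 1374 RPM in H (median 255) and 0 to 1971 RPM in L (median 818), and it had reads in 10 libraries of each group. The 2 genes share their exon plan: 18 of the 29 inner exons of CREBBP have the same length as their counterpart in EP300, whose annotation has 32 exons because 2 bases part its exons 6 and 7. With exons matched in this way, 0 of the 12 EP300 rings had the same pair of end exons as a CREBBP ring. Starts were shared by 5 of the 12, at the counterparts of exons 3, 7 and 14, and ends by 0. The EP300 ring named by the study, at chr5:7338822-7345954, matched exons 9 to 13 of CREBBP, and had 21 reads in 1 H library and 873 reads in 7 L libraries. The study selected it at random for validation, and placed it in a network built from circRNAs that differed in these samples. The values of this ring are therefore a description.

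Other partners of CREBBP were taken as a list of 27 genes for co-activators, acetyltransferases and CREB family factors. Of these, 18 had circRNAs, 73 in all, and 12 entered the edgeR test. The EP300 ring named by the study was the only one called in either test, 1 higher in L and 0 higher in H, against 1.68% of all circRNAs tested by edgeR and 0.765% on detection. The study had already placed this ring among circRNAs that differed in these libraries. The median log2 fold change was 0.48, beside 0.22 over all 2793. CREB1 itself had 5 circRNAs, with means of 81.8 RPM in H and 89.9 RPM in L.

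A list of 27 genes of cell survival was examined because the study placed circ-CREBBP upstream of that pathway. It had 49 circRNAs from 12 genes, of which 11 entered the edgeR test and 0 were called by either test, against 1.68% of all circRNAs tested by edgeR and 0.765% by Fisher's exact test. The median log2 fold change was -0.22, beside 0.22 over all 2793. MCL1, BCL2, BAX and AKT1 had no circRNA in the table (0 each).

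Vesicles of seminal plasma come from several cell types, and 2 lists of host genes were summed for germ cells and leukocytes. The germ cell list, with circRNAs from 17 of 20 genes, summed to 80.2 to 3666 RPM in H (median 1207) and 235 to 3017 RPM in L (median 671). SYCP1, of the synaptonemal complex, was its most abundant gene over both groups together, with means of 361 RPM in H and 67.9 RPM in L. In L it was below BOLL (250 RPM) and TEX10 (206 RPM), which had 172 RPM and 89.9 RPM in H. The leukocyte list, with circRNAs from 7 of 15 genes, summed to 0 to 397 RPM in H (median 0) and 0 to 937 RPM in L (median 310). Its most abundant gene was ELMO1 with a mean of 102 RPM, while PTPRC and ITGAM, which define leukocytes and myeloid cells, had 0 circRNAs. The median of the leukocyte sum was thus higher in L, the group in which more libraries had reads of 6 CREBBP isoforms, and its part in that was not tested.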

How the data were processed

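Long and small RNA libraries of 24 boars were compared. The circRNA values deposited by the authors are counts of junction reads without normalization, kept for circRNAs that both find_circ and CIRI2 found and that had at least 2 such reads; the miRNA table holds such counts of mature miRNAs. The submitters' processing notes name Bowtie, FastQC, cutadapt and susScr11. All columns were mapped to a library (0 were not). RPM and CPM were computed over all circRNA junction reads and all miRNA counts of a library.

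Tests were fitted on the whole table in R 4.3.3 with edgeR 4.0.16 (TMM, quasi-likelihood, no covariate; the study's methods name edgeR and the p and fold limits used here) and DESeq2 1.42.0, and in Python 3.11.15 with SciPy 1.17.1, NumPy 2.4.6 and pandas 2.3.3. Exons were those of NCBI Annotation Release 106, whose build (Sscrofa11.1) is also that of the coordinates. Flanking introns were searched with blastn 2.17.0 (word size 11). The oligonucleotides came from the supplement of the study.

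The text names all CREBBP circRNAs, EP300 circRNAs called or named by the study, the 5 host genes most alike by Spearman's rho, and circRNAs of the lists called by either test. The members and lists were chosen with earlier results of these data known. Alternatives were other filters, normalizations and tests, a replicate block, minimum reads, scaled reads and omitted libraries, of which those without H3 and those for the sum without circ-CREBBP were chosen after seeing the data. Values of most single genes of the lists are not reported here.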

Additional observations from a re-analysis of the deposited data

How the results depend on the processing

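With edgeR, 0 CREBBP circRNAs beyond circ-CREBBP were called under each alternative. Without a filter, 10517 of 17379 circRNAs were called, against 47 of 2793 in the main test. In earlier results of these data that setting called most circRNAs also when reads were permuted, so its 0 CREBBP calls carry no weight. Of all circRNAs, 3 of 956 were called with filterByExpr, 73 by DESeq2, 53 without TMM, 28 without L12 and 55 of 2636 without H3. An adjusted p under 0.05 was reached by 20 circRNAs, by 8 without L12, 25 without H3, 4 with DESeq2, 0 with filterByExpr and 10484 without a filter. Without TMM, the median log2 fold change over all circRNAs moved from 0.22 to 0.04, and the share of calls higher in L from 87.2% to 75.5%, beside 62.8% without a filter, 75% without L12, 89% with DESeq2, 89.1% without H3, 94.6% with the replicate block and 100% (3 of 3) with filterByExpr. With the replicate block, 0 CREBBP circRNAs and 184 of all were called, 0 of them at an adjusted p under 0.05. Same-numbered libraries did not deviate together (correlations of -0.0402 to 0.163, 1 of 12 pairs over 0.1, and 4 of 24 libraries best matched by their own number), so that the numbers are names. The sign of the log2 fold change of the 4 fitted circRNAs was kept wherever they could be fitted, but the replicate block moved its size, from 1.15 to 4.25 for exons 7 to 9, from 0.42 to 2.82 for exons 7 to 8, from 0.50 to 1.28 for exon 2 and from -2.89 to -1.68 for exons 15 to 16, and leaving out H3 gave 2.52, 1.23, 0.60 and -2.86; filterByExpr kept 1 of them, and exons 15 to 16 was not fitted without L12.

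The summed RPM of L minus H was -146, and 73.2 without circ-CREBBP, 29.1 with TMM-scaled totals, 4.21 without H3, -106 by medians and -158 without L12. For the 9 others, 73.2 became 218 with TMM-scaled totals, 163 without H3, 353 by medians and 60.8 without L12. All lie within 1 SD of the main value. The sign turned for the sum with circ-CREBBP, and stayed for the 9 others under these alternatives. Calls on detection numbered 0 with at least 10 reads, with scaled reads and without L12, but 5 of the 9 circRNAs were in too few libraries to be called among all 24, so that this says nothing of their stability. Libraries with reads stayed at 11 H and 10 L with at least 10 reads and with scaled reads, and were 10 and 10 without circ-CREBBP. With 2 to 12 libraries per circRNA, detection limits what these data can show.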
